A study of Homo sapiens with 12 samples.

Results

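TXNIP, ARRDC1, ARRDC2, ARRDC3, ARRDC4, MLXIP and MLX were followed across HEK293 cells in which 1 of 3 splicing factors, RBM17, U2SURP or CHERP, had been depleted. These 7 genes, of the 60554 gene IDs counted, are alpha-arrestin genes together with the pair of glucose-sensing transcription factor genes MLXIP and MLX. They were listed by symbol, and the list was drawn up knowing that TXNIP and ARRDC3 were higher in every knockdown than in control. The values of TXNIP and ARRDC3 against control are therefore given as a description with no test. The other 5 genes were read from the fit against control, and all 7 were tested in the direct contrasts between knockdowns.

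Alpha-arrestins are adaptor proteins with an arrestin fold that bring NEDD4-family ubiquitin ligases to membrane proteins, which are then internalised or degraded. TXNIP binds thioredoxin, the small redox protein that gives it its name, and promotes removal of the glucose transporter GLUT1 (gene SLC2A1) from the cell surface. MLXIP, also called MondoA, pairs with MLX, enters the nucleus when glucose 6-phosphate accumulates and activates genes that carry carbohydrate response elements. TXNIP and ARRDC4 are its best described targets.

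HEK293 is a human cell line derived from embryonic kidney. The source field of the labels reads HEK293 and the cell line field HEK293T, a derivative that expresses SV40 large T antigen. Cells, all of the same passage number, received a SMARTpool targeting 1 of the 3 genes, or the ON-TARGET plus Non-targeting siRNA #3 as control, whose label names no pool, so this difference in reagent cannot be told apart from the knockdowns. Each group had 3 libraries, 12 in all, and the labels carry no siRNA dose or time. The 3 factors bind RNA and associate with the U2 snRNP of the spliceosome, and the design asks how depletion of each changes the transcriptome. Separate cultures are not stated for the libraries of a group, so p-values reflect only the spread between libraries, which may be technical.

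Libraries held 252505520 to 320986785 gene counts. Each targeted mRNA was lower in all 3 libraries of its own knockdown: RBM17 went from 115.2 to 26.5 CPM (counts scaled to library size), U2SURP from 470.9 to 143.7 and CHERP from 61.3 to 18.0. All 8 of 8 HEK293 markers had a mean of at least 1 CPM over the 12 libraries. By group, PAX2 averaged 0.91 CPM in U2SURP knockdown and 0.52 in CHERP knockdown, and LHX1 averaged 0.85 in U2SURP knockdown. Summed levels of the 8 were 665 to 736 CPM in control, 778 to 880 in RBM17 knockdown, 681 to 738 in U2SURP knockdown and 683 to 797 in CHERP knockdown. Of the markers of other cells, 1 of 6 fibroblast genes (COL1A1), 1 of 5 blood genes and 1 of 2 liver genes reached 1 CPM, and both keratinocyte genes were near 0. Mitochondrial genes took 7.88% to 8.7% of counts in control and 3.98% to 5.15% in the knockdowns. Control library 3 lay apart from the other controls on the first principal component (8.26 against 25.1 and 28.2). RBM17 knockdown libraries 1 to 3 were also spread on it, at −64.5, −88.0 and −77.3. Each group had consecutive library numbers of its own, so batch of preparation and group cannot be told apart. All 7 genes passed the filter on low counts and were among the 29003 genes tested.

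Promoter sequences are shown first for the genes whose levels moved most and for MLX, because they hold the letters that the MondoA and MLX pair and the forkhead factors are known to read. They come from the RefSeq promoter table (GRCh38.p14, 250 bases before to 50 after each start), in which all 7 genes matched, and each runs 5′ to 3′ on the strand of its gene. Capitals mark matches to the motifs searched on both strands, whose letters were chosen with these sequences in view. The TXNIP stretch is chr1:145996601-145996750 on the minus strand, ending 22 bases before the start at 145996579. The ARRDC4 stretch is chr15:97960473-97960652 on the plus strand, ending 51 bases before the start at 97960703. For ARRDC3, 27 bases before the second listed start at 91380097 are shown, chr5:91380110-91380136 on the minus strand, all within an annotated exon of ARRDC3. For MLX, chr17:42567033-42567062 on the plus strand is shown, ending 38 bases before the start at 42567100.
TXNIP: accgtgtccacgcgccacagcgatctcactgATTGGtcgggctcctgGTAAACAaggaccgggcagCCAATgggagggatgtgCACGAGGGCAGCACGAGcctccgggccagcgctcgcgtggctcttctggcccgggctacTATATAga
ARRDC4: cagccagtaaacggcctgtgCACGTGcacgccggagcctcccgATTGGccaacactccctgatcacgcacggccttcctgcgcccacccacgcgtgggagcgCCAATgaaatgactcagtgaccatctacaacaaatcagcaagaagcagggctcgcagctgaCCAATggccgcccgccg
ARRDC3: gcccggcactTGTTTACcacggcgcgg
MLX: gATTGGcgggcgcgggtCACGTGggcacgc

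TXNIP held a pair of degenerate E-boxes (CACGNG, any 5 bases, CACGNG) in the layout of a carbohydrate response element, 88 bases upstream of its start. These letters occurred in 20 of the 35116 promoters of the same length (0.057%), and in no other of the 7 genes. ARRDC4 held a single E-box, CACGTG, 210 bases upstream, and MLX held another 50 bases upstream; 7.26% of promoters held one. The forkhead letters GTAAACA were found 124 bases upstream in TXNIP and, on the other strand as TGTTTAC, 29 bases upstream of the second ARRDC3 start, against 3.42% of promoters. TXNIP also held the TATA letters TATATA 29 bases upstream, which 3.99% of promoters held. CCAAT, or ATTGG on the other strand, was found in 7 of the 10 promoters of the 7 genes and in 34.6% of all promoters. The carbohydrate element contains no CACGTG and overlaps none of the other motifs. A match describes letters in this window and is not evidence of binding.

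**Figure D1:**
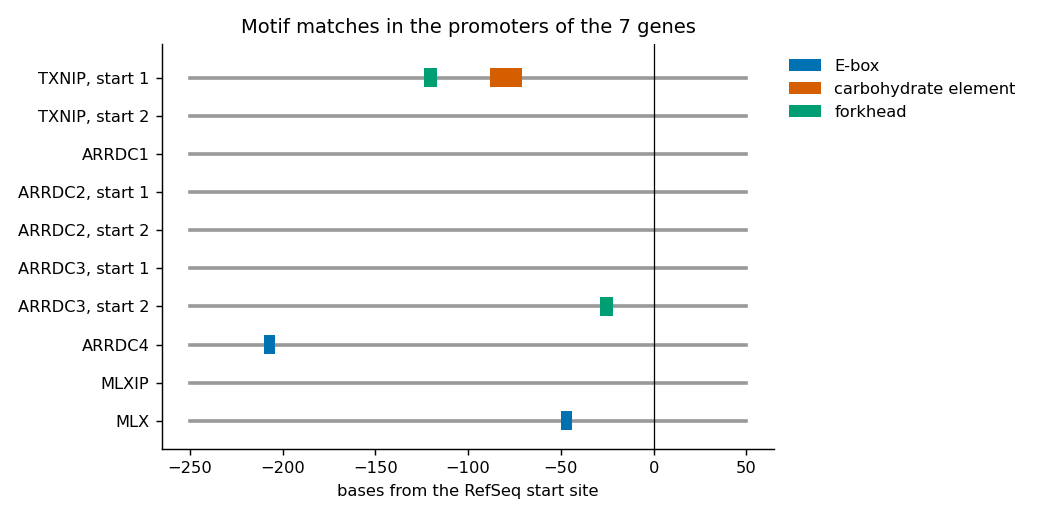
Positions of the E-box, carbohydrate element and forkhead matches in the 10 RefSeq promoters of the 7 genes, in bases from the start site (horizontal axis), with 1 grey line per promoter and coloured blocks for matches. TXNIP holds the carbohydrate element at 88 bases upstream, and ARRDC4 and MLX hold a single E-box at 210 and 50 bases upstream.

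In GENCODE 29 (GRCh38) TXNIP (ENSG00000265972) lies on the minus strand of chromosome 1 from 145992435 to 145996600 and is the most compact of the 7, with a span of 4166 bases. ARRDC1 (ENSG00000197070) lies on chromosome 9 from 137605654 to 137615360, ARRDC2 (ENSG00000105643) on chromosome 19 from 18001132 to 18014102 and ARRDC4 (ENSG00000140450) on chromosome 15 from 97960698 to 97973838, all on the plus strand. ARRDC3 (ENSG00000113369) lies on the minus strand of chromosome 5 from 91368724 to 91383359. These 5 alpha-arrestin genes shared a layout of 8 exons. MLX (ENSG00000108788, plus strand of chromosome 17, 42567068 to 42573239) also had 8, and MLXIP (ENSG00000175727, plus strand of chromosome 12, 122078722 to 122147347) had 17 over 68626 bases. No other annotated gene overlapped the exons of TXNIP, ARRDC4 or MLXIP.

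TXNIP, the thioredoxin-binding alpha-arrestin, was higher in all 9 knockdown libraries than in any control library. Control libraries 1 to 3 held 38.7, 39.5 and 43.5 CPM. RBM17 knockdown libraries held 100.1, 97.2 and 92.6 CPM, U2SURP knockdown libraries 123.8, 137.3 and 130.9, and CHERP knockdown libraries 102.4, 108.6 and 88.0. No knockdown library overlapped the controls, a separation upward that 27%, 25.3% and 27% of tested genes showed in RBM17, U2SURP and CHERP knockdown, and the U2SURP libraries also lay above every library of the other knockdowns. Means were 40.5 ± 2.58 CPM (SD, n = 3) in control, 96.6 ± 3.77 with RBM17 siRNA, 130.7 ± 6.80 with U2SURP siRNA and 99.6 ± 10.6 with CHERP siRNA. The log2 fold changes against control were 1.25 ± 0.07 (SE) for RBM17 knockdown (2.38-fold), 1.69 ± 0.07 for U2SURP knockdown (3.22-fold) and 1.30 ± 0.07 for CHERP knockdown (2.46-fold). In all, 1.56%, 0.876% and 2.82% of the tested genes had a larger log2 fold change in the respective contrasts. The lower mitochondrial share of the knockdown libraries moved with the same groups, and its part in these values was not tested. RNA came from whole cultures, so fewer cells of a kind and less RNA per cell cannot be told apart.

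The size of the TXNIP difference varied with the factor depleted. Libraries did not overlap, with the first-named knockdown higher or lower, for 26.6% and 26.7% of genes in RBM17 against U2SURP knockdown, 28.1% and 29.8% in RBM17 against CHERP knockdown, and 21.9% and 21% in U2SURP against CHERP knockdown. TXNIP was higher in U2SURP knockdown than in RBM17 knockdown: RBM17 minus U2SURP was −0.44 ± 0.07 log2 units, with a 95% interval of −0.57 to −0.30 and an adjusted p of 7.5e-06 (edgeR quasi-likelihood test, Benjamini-Hochberg). It was also higher in U2SURP than in CHERP knockdown, by 0.39 ± 0.07 (interval 0.26 to 0.53, edgeR adjusted p = 6.93e-05). RBM17 and CHERP knockdown differed by −0.04 log2 units, with an interval of −0.18 to 0.09 (edgeR adjusted p = 0.599).

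ARRDC3, an alpha-arrestin linked to turnover of beta-adrenergic receptors and of integrins, was expressed at a lower level and spread more within groups. It was found at 8.91, 10.7 and 11.3 CPM in control libraries 1 to 3. RBM17 knockdown libraries held 17.4, 26.9 and 25.1 CPM, U2SURP knockdown libraries 21.5, 34.7 and 32.7, and CHERP knockdown libraries 20.1, 31.1 and 33.9. All 9 knockdown libraries lay above all controls. Taken knockdown by knockdown, 27%, 25.3% and 27% of genes did so in RBM17, U2SURP and CHERP knockdown. The share of genes with all 9 above was not counted. Of library numbers 1 to 3, number 1 was the lowest in each of the 4 groups. Those numbers follow accession order, and the labels do not say whether they link libraries across groups. Log2 fold changes against control were 1.17 ± 0.27 (SE, 2.25-fold), 1.53 ± 0.27 (2.89-fold) and 1.47 ± 0.27 (2.77-fold) for RBM17, U2SURP and CHERP knockdown. Here 1.91%, 1.22% and 1.94% of tested genes had larger values. In the fit, which did not pair libraries by number, the knockdowns could not be ordered for ARRDC3. At each of numbers 1 to 3 RBM17 knockdown was the lowest of the 3 knockdowns, and a paired fit was not run. RBM17 minus U2SURP was −0.36 (interval −0.96 to 0.25), RBM17 minus CHERP −0.30 (−0.90 to 0.31) and U2SURP minus CHERP 0.06 (−0.54 to 0.67), with edgeR adjusted p-values of 0.315, 0.388 and 0.898. A difference as large as that of TXNIP between RBM17 and U2SURP knockdown lies within the first of these intervals. It was therefore not detectable for ARRDC3 in this unpaired fit. Without strand information in the counting, reads of ARRDC3 and its antisense partner ARRDC3-AS1, which overlaps 2.94% of its exon bases, cannot be separated; ARRDC3-AS1 itself averaged 1.67 to 2.50 CPM per group.

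**Figure D2:**
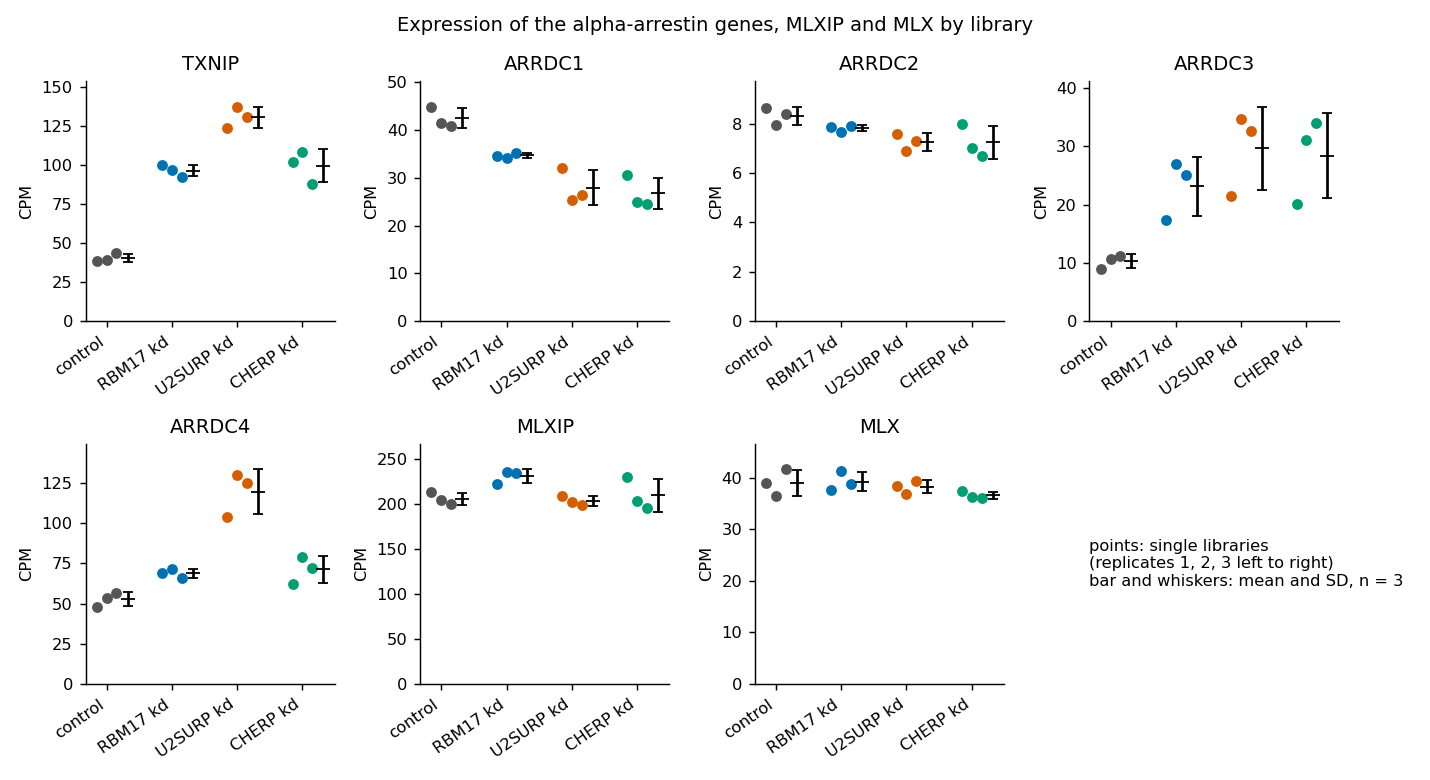
Level of each of the 7 genes in CPM (vertical axes, each from 0) in the 3 libraries of each group, with points for libraries and the group mean with an SD bar. TXNIP and ARRDC3 lie above control in all 9 knockdown libraries, ARRDC4 is highest with U2SURP siRNA and ARRDC1 is lowest with U2SURP or CHERP siRNA.

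Among the 5 genes not chosen by their values, 2 were called higher and 1 lower in RBM17 knockdown, where 25.4% of all tested genes were called higher and 29.3% lower at an adjusted p under 0.05. In U2SURP knockdown 1 was called higher and 2 lower (21.1% and 22.2% of all genes), and in CHERP knockdown 1 and 2 (22.8% and 24.6%). With 54.7%, 43.3% and 47.3% of all genes called in either direction, a call by itself does not set these genes apart. Medians over the 5 were 0.01, −0.03 and −0.09 log2 units, beside −0.10, −0.02 and 0.00 over all genes. ARRDC4 was called higher and ARRDC1 lower in all 3 knockdowns; 10.2% of genes were called higher in all 3 and 10.8% lower in all 3.

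ARRDC4, the alpha-arrestin closest to TXNIP in its known control by MondoA, rose in every knockdown and most with U2SURP siRNA. Control libraries held 48.1, 53.6 and 56.7 CPM. Levels were 69.3, 71.4 and 65.9 CPM with RBM17 siRNA, 104.0, 129.7 and 125.1 with U2SURP siRNA, and 62.4, 79.2 and 72.1 with CHERP siRNA. No knockdown library overlapped control, a separation upward that 27%, 25.3% and 27% of genes showed in RBM17, U2SURP and CHERP knockdown. The U2SURP libraries stood above all others. ARRDC4 rose by 0.38 ± 0.09 log2 units (SE) in RBM17 knockdown (1.3-fold, edgeR adjusted p = 0.00137). It rose by 1.18 ± 0.09 in U2SURP knockdown (2.27-fold, edgeR adjusted p = 1.87e-08) and by 0.43 ± 0.09 in CHERP knockdown (1.35-fold, edgeR adjusted p = 0.000598).

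The excess of ARRDC4 in U2SURP knockdown was called in both direct contrasts. RBM17 minus U2SURP was −0.80 ± 0.09 (interval −0.98 to −0.61, edgeR adjusted p = 1.19e-06) and U2SURP minus CHERP 0.75 ± 0.09 (interval 0.56 to 0.94, edgeR adjusted p = 6.61e-06). RBM17 and CHERP knockdown differed by −0.05, with an interval of −0.24 to 0.14 (edgeR adjusted p = 0.671). TXNIP and ARRDC4 thus had the same order of knockdowns, with U2SURP above both others. Their log2 fold changes against control differed in size: 1.25 beside 0.38 in RBM17 knockdown, 1.69 beside 1.18 in U2SURP knockdown and 1.30 beside 0.43 in CHERP knockdown. Those 3 contrasts share the control libraries.

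ARRDC1, an alpha-arrestin known for driving budding of small vesicles at the plasma membrane, moved the opposite way. Its level was 44.8, 41.5 and 40.9 CPM in control. It was 34.6, 34.2 and 35.2 CPM in RBM17 knockdown, 32.1, 25.3 and 26.3 in U2SURP knockdown and 30.6, 25.0 and 24.6 in CHERP knockdown. All 9 knockdown libraries lay below the controls, and all U2SURP and CHERP libraries lay below those of RBM17 knockdown. Taken contrast by contrast, 32.3%, 26.7% and 27.9% of genes lay below control. The share of genes with all 9 below was not counted. The level fell by 0.29 log2 units in RBM17 knockdown (SE 0.08, edgeR adjusted p = 0.00568), by 0.60 in U2SURP knockdown (SE 0.08, edgeR adjusted p = 7.26e-06) and by 0.67 in CHERP knockdown (SE 0.08, edgeR adjusted p = 1.57e-06).

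ARRDC1 was higher in RBM17 knockdown than in U2SURP knockdown by 0.31 log2 units (interval 0.14 to 0.49, edgeR adjusted p = 0.00456) and than in CHERP knockdown by 0.38 (0.20 to 0.55, edgeR adjusted p = 0.000817). U2SURP and CHERP knockdown differed by 0.06 (−0.11 to 0.24, edgeR adjusted p = 0.638). The antisense RNA named for it, ARRDC1-AS1, also fell, from 22.01 CPM in control to 18.1, 16.4 and 14.9, by 0.28, 0.43 and 0.56 log2 units (edgeR adjusted p = 0.000642, 7.57e-06 and 1.13e-07). The pair overlap by 29 exonic bases, 0.76% of the ARRDC1 exon bases, and AL590627.2 on the same strand overlaps a further 183.

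ARRDC2, an alpha-arrestin with the lowest level per kilobase of the 7 genes, differed by at most 0.20 log2 units between groups. Control libraries held 8.64, 7.93 and 8.40 CPM, against 7.85, 7.68 and 7.91 with RBM17 siRNA, 7.60, 6.90 and 7.28 with U2SURP siRNA, and 8.003, 7.03 and 6.69 with CHERP siRNA. All RBM17 and U2SURP libraries lay below the controls, as 32.3% and 26.7% of genes did in those contrasts. In CHERP knockdown 1 library lay within the control range. Log2 differences from control were −0.09 (RBM17 knockdown, edgeR adjusted p = 0.322), −0.20 (U2SURP knockdown, 0.0371) and −0.20 (CHERP knockdown, 0.0312). Both calls were close to the threshold. The U2SURP call was lost with DESeq2's size factors in edgeR (adjusted p = 0.0761), DESeq2's Wald test (adjusted p = 0.0533) and no filter (edgeR adjusted p = 0.0619). It was also lost without control library 1 or 3 (adjusted p = 0.131 and 0.0719) and without U2SURP library 2 or 3 (0.156 and 0.0839). The CHERP call was lost with DESeq2's size factors in edgeR (adjusted p = 0.0584), without control library 1 or 3 (0.114 and 0.0626) and without CHERP library 2 or 3 (0.116 and 0.0851). None of the 3 direct contrasts was called for ARRDC2, whose differences lay between 0.00 and 0.11 log2 units with all interval bounds between −0.15 and 0.27. An unnamed transcript, AC020904.3, covers 9.53% of the ARRDC2 exon bases on the other strand.

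MLXIP, the glucose-responsive factor MondoA, differed between groups by less than ARRDC1 or ARRDC4. Libraries held 213.6, 204.3 and 200.6 CPM in control, 222.5, 235.9 and 235.1 in RBM17 knockdown, 209.1, 203.0 and 198.8 in U2SURP knockdown and 230.9, 203.3 and 195.6 in CHERP knockdown. The RBM17 libraries lay above the controls, as 27% of genes did, and the U2SURP and CHERP libraries overlapped the controls. MLXIP was called higher in RBM17 knockdown by 0.17 ± 0.06 log2 units (SE, edgeR adjusted p = 0.0164). It was not called in U2SURP knockdown (−0.02, interval −0.14 to 0.10, edgeR adjusted p = 0.836) or in CHERP knockdown (0.03, interval −0.09 to 0.14, edgeR adjusted p = 0.741). The RBM17 call was lost in a fit of protein-coding genes only (0.10, edgeR adjusted p = 0.135), without control library 2 (edgeR adjusted p = 0.0516) and without RBM17 library 2 or 3 (edgeR adjusted p = 0.0597 and 0.055).

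MLXIP was also called higher in RBM17 than in U2SURP knockdown by 0.18 (interval 0.07 to 0.30, edgeR adjusted p = 0.0108) and than in CHERP knockdown by 0.14 (0.02 to 0.26, edgeR adjusted p = 0.0435). The first was lost in the fit of protein-coding genes only (edgeR adjusted p = 0.0649) and without U2SURP library 3 (edgeR adjusted p = 0.0524). The second was lost in 8 of 17 alternatives, with adjusted p up to 0.356 in the protein-coding fit. Libraries whose absence ended that call were CHERP 2 and 3 (edgeR adjusted p = 0.166 and 0.0572), RBM17 2 and 3 (0.127 and 0.117), U2SURP 2 and 3 (0.0548 and 0.0558) and control 2 (0.0528).

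MLX, the partner that MLXIP needs to bind DNA, was not called in any of the 6 contrasts. Its levels were 38.9, 36.4 and 41.6 CPM in control, 37.6, 41.3 and 38.9 with RBM17 siRNA, 38.5, 36.9 and 39.4 with U2SURP siRNA, and 37.4, 36.2 and 36.1 with CHERP siRNA. Each knockdown overlapped control, while the CHERP libraries lay just below those of RBM17 knockdown. Log2 differences from control were 0.01 (interval −0.11 to 0.13), −0.03 (−0.14 to 0.09) and −0.09 (−0.21 to 0.02), with edgeR adjusted p of 0.892, 0.741 and 0.186. In the fit without U2SURP library 1, MLX was called higher in RBM17 than in CHERP knockdown (0.15, edgeR adjusted p = 0.023), against 0.10 (edgeR adjusted p = 0.131) with all libraries. PSMC3IP, a protein-coding gene on the other strand, overlaps 18.08% of the MLX exon bases.

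**Figure D3:**
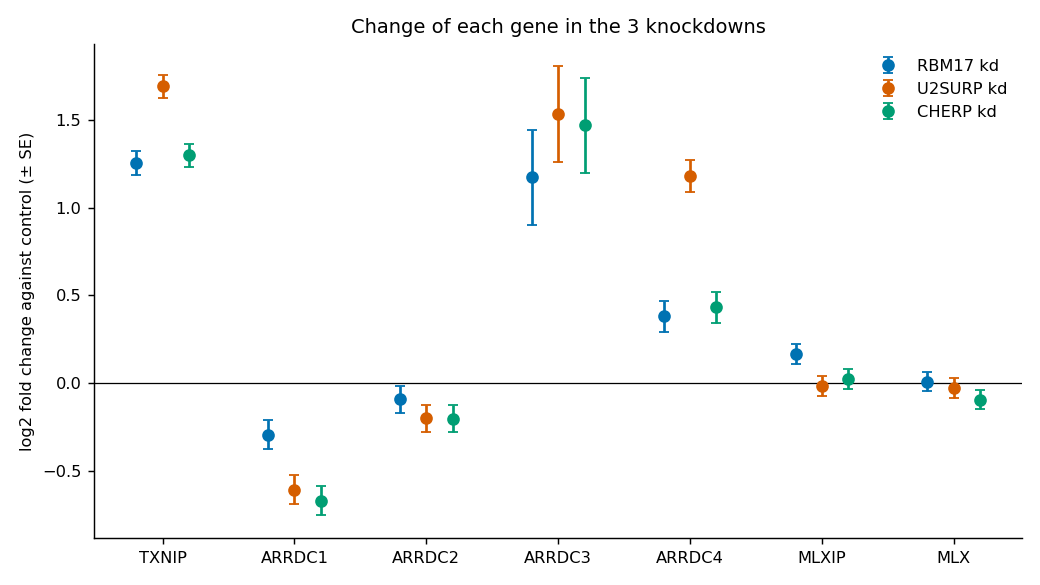
Log2 fold change against control (vertical axis) of the 7 genes in each knockdown (colours), as the estimate of edgeR's fit with bars of 1 SE. TXNIP and ARRDC3, which were chosen by these values, lie above 1 in all 3 knockdowns, ARRDC4 lies between 0.38 and 1.18, ARRDC1 lies below 0, and ARRDC2, MLXIP and MLX lie near 0.

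Of the 7 genes, 2 were called higher and 2 lower in RBM17 knockdown than in U2SURP knockdown, beside 23% and 21.5% of all genes (44.5% in either direction). In RBM17 knockdown against CHERP knockdown, 2 were called higher and 0 lower, beside 26.1% and 25.5% of all genes (51.6% in either direction). In U2SURP knockdown against CHERP knockdown, 2 were called higher and 0 lower, beside 15% and 12.9% of all genes (27.9% in either direction). TXNIP and ARRDC4 made up the calls wherever U2SURP knockdown was in the contrast, and ARRDC1 and MLXIP wherever RBM17 knockdown was.

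**Figure D4:**
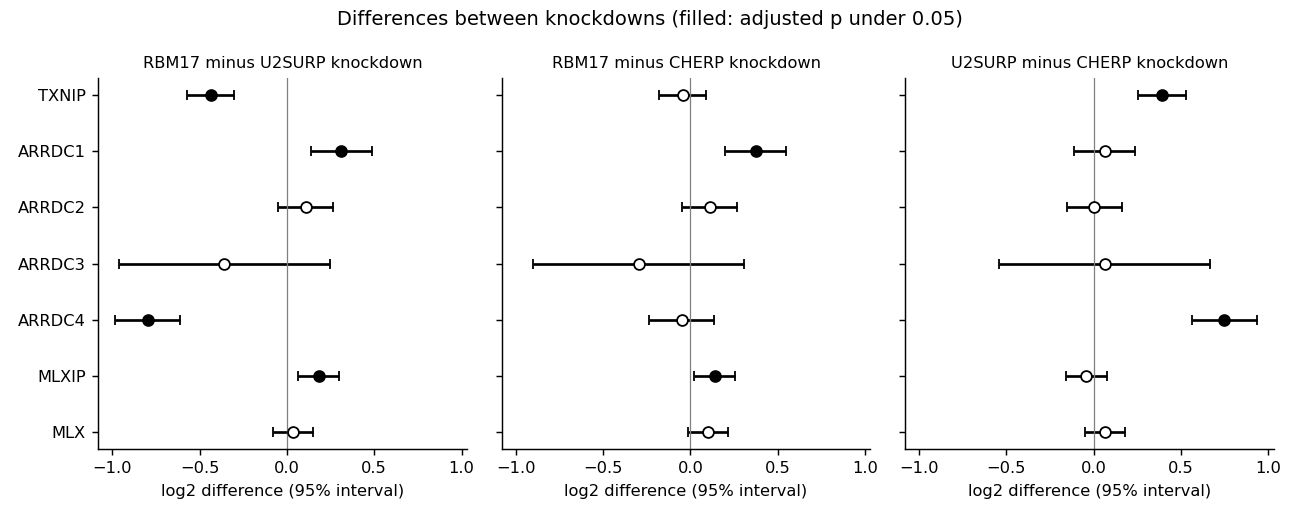
Log2 difference between knockdowns (horizontal axis) for the 7 genes in the 3 direct contrasts, with 95% intervals and filled points for an adjusted p under 0.05. TXNIP and ARRDC4 are set apart by U2SURP knockdown (−0.44 and −0.80 for RBM17 minus U2SURP), ARRDC1 by RBM17 knockdown (0.31 and 0.38), and the ARRDC3 intervals all include 0.

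Per kilobase of annotated exon, the level of TXNIP moved from rank 3 among the 7 genes to rank 1. In control the order in CPM per kilobase was MLXIP 14.8 ± 0.483 (SD, n = 3), ARRDC4 13 ± 1.07, TXNIP 11.2 ± 0.712, ARRDC1 11.1 ± 0.556, MLX 9.15 ± 0.605, ARRDC3 2.08 ± 0.246 and ARRDC2 1.80 ± 0.078. TXNIP and ARRDC1 did not differ beyond their SDs, nor did ARRDC3 and ARRDC2. In RBM17 knockdown TXNIP led with 26.7 ± 1.04 CPM per kilobase, followed by ARRDC4 (16.9 ± 0.678) and MLXIP (16.6 ± 0.541), whose ranges overlapped. In U2SURP knockdown TXNIP stood at 36.0 ± 1.88 and ARRDC4 at 29.4 ± 3.37, both above MLXIP at 14.6 ± 0.373. In CHERP knockdown the order was TXNIP 27.5 ± 2.92, ARRDC4 17.5 ± 2.07 and MLXIP 15.1 ± 1.34, the last pair overlapping. ARRDC3 went in this measure from 2.08 in control to between 4.69 and 6 in the knockdowns, and its range overlapped that of ARRDC1 with U2SURP and CHERP siRNA. With the length of the longest transcript in place of all exons, TXNIP was again at rank 3 in control (13.9, after MLXIP at 24.5 and MLX at 15.1) and at rank 1 in each knockdown (33.0 with RBM17, 44.7 with U2SURP and 34.1 with CHERP siRNA). That length put MLXIP above ARRDC4 in RBM17 knockdown (27.4 and 16.9) and in CHERP knockdown (24.9 and 17.5), and ARRDC4 above MLXIP in U2SURP knockdown (29.4 and 24.2).

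The genes whose profiles over the 12 libraries lay closest to those of TXNIP, ARRDC3 and ARRDC4 were found by the root mean square difference of log2 CPM, each gene centred on its own mean, among 10929 protein-coding genes with a mean of at least 5 CPM. For TXNIP these were DNAJA4 (0.195), RGS5 (0.212), G0S2 (0.26) and RAB3IL1 (0.261). DNAJA4 encodes a co-chaperone, RGS5 a regulator of G-protein signalling and G0S2 an inhibitor of lipolysis. G0S2 averaged 8.97 CPM in control and 19.1, 39.4 and 21.5 CPM with RBM17, U2SURP and CHERP siRNA, with U2SURP highest as for TXNIP. RGS5 and RAB3IL1 were also highest with U2SURP siRNA. The nearest gene, DNAJA4, was highest with CHERP siRNA, at 5.04, 6.48 and 6.65 CPM in the same order. For ARRDC3 the nearest were RAB3IL1 (0.289), TIGD6 (0.3), TXNIP itself (0.31) and RGS5 (0.316). For ARRDC4 they were STXBP6 (0.152), WDR31 (0.159), THBS4 (0.165) and PCLO (0.191). WDR31 averaged 13.6 CPM in control and 19.6, 28.6 and 22 CPM in the knockdowns. With a lower minimum of 1 CPM, 1 of 4 names was kept for TXNIP, 1 of 4 for ARRDC3 and 3 of 4 for ARRDC4. The name kept for ARRDC3 was RAB3IL1, so TXNIP was no longer among its 4 nearest. Between members the distance was 0.31 for TXNIP and ARRDC3, 0.37 for TXNIP and ARRDC4, 0.438 for ARRDC3 and ARRDC4 and 0.893 for TXNIP and ARRDC1. These distances share the group differences and the library scaling, and are given as a description. TXNIP and ARRDC3 were listed knowing that both were higher in every knockdown, so their closeness follows in part from that choice.

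Genes that act with the 7 were taken from lists, which were drawn up with earlier results of these data known. SLC2A1, which encodes the glucose transporter that TXNIP removes from the surface, fell with U2SURP and CHERP siRNA. Control libraries held 95.2, 91.5 and 96.0 CPM, and RBM17 knockdown libraries 80.7, 82.8 and 99.9. U2SURP knockdown libraries held 47.1, 46.4 and 49.0 CPM and CHERP knockdown libraries 45.2, 45.6 and 50.5. All lay below the controls, as 26.7% and 27.9% of genes did in those contrasts. The log2 fold change was −0.10 ± 0.06 (SE) in RBM17 knockdown (edgeR adjusted p = 0.195), −0.99 ± 0.07 in U2SURP knockdown (1.98-fold lower, edgeR adjusted p = 6.82e-11) and −1 ± 0.07 in CHERP knockdown (edgeR adjusted p = 1.78e-11). Compared directly, SLC2A1 was higher in RBM17 than in U2SURP knockdown by 0.89 (edgeR adjusted p = 1.72e-10) and than in CHERP knockdown by 0.90 (edgeR adjusted p = 5.81e-11). U2SURP and CHERP knockdown differed by 0.01 (interval −0.12 to 0.15). TXNIP had been listed knowing that it was higher in all 3 knockdowns, and a link between it and SLC2A1 mRNA was not tested.

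Of the 16 genes of glucose uptake and of targets described for MondoA or its relative ChREBP, 10 rose and 3 fell in RBM17 knockdown, 6 rose and 5 fell in U2SURP knockdown, and 3 rose and 6 fell in CHERP knockdown. Over all tested genes, 25.4% were called higher and 29.3% lower in RBM17 knockdown, 21.1% and 22.2% in U2SURP knockdown, and 22.8% and 24.6% in CHERP knockdown. The shares higher in CHERP knockdown and lower in RBM17 and U2SURP knockdown lie near that background. In a list of 16 genes, such gaps rest on few genes. Medians of the list were 0.30, 0.01 and −0.13 log2 units, beside −0.10, −0.02 and 0.00 over all genes. KLF10, a Krüppel-like transcription factor and described ChREBP target, rose in all 3, from 44.7 CPM in control to 75.9, 75.2 and 51.2 (log2 0.77, 0.75 and 0.20; edgeR adjusted p = 1.88e-11, 9.49e-11 and 0.00237). ACLY, which makes cytosolic acetyl-CoA, rose by 0.82 in RBM17 knockdown and 0.18 in U2SURP knockdown (edgeR adjusted p = 1.28e-11 and 0.00766). HK1, a hexokinase, rose by 0.57 in RBM17 knockdown (edgeR adjusted p = 1.07e-09). G6PC3, a glucose 6-phosphatase, fell by 0.57 in U2SURP knockdown and by 0.68 in CHERP knockdown (edgeR adjusted p = 3.91e-08 and 1.18e-09). ACACA, an acetyl-CoA carboxylase, fell in all 3, by 0.14, 0.13 and 0.64 (edgeR adjusted p = 0.0345, 0.0484 and 1.08e-09). GPI, a glycolytic isomerase, and PDK4, a kinase that inhibits pyruvate dehydrogenase, were also called higher in all 3 and are named after their values were seen. GPI rose by 0.66, 0.25 and 0.18 log2 units (edgeR adjusted p = 3.47e-09, 0.00181 and 0.0194) and PDK4 by 0.34, 0.49 and 0.83 (edgeR adjusted p = 0.0147, 0.00105 and 1.79e-06).

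In the MLX and MAX network, the basic helix-loop-helix factors that share MLX or MAX as a partner, 3 of 10 genes rose and 4 fell in RBM17 knockdown, 2 rose and 4 fell in U2SURP knockdown and 2 rose and 5 fell in CHERP knockdown. In the same order 25.4% of all genes were called higher and 29.3% lower, 21.1% and 22.2%, and 22.8% and 24.6%, so the numbers that rose are near the background. The list's medians were −0.10, −0.12 and −0.12, beside −0.10, −0.02 and 0.00 over all genes. MLXIPL, which encodes ChREBP, the relative of MLXIP, fell in all 3: from 25.9 CPM in control to 13.5, 19.3 and 15.5, by 0.95, 0.42 and 0.74 log2 units (edgeR adjusted p = 7.51e-10, 0.000121 and 5.28e-08). MNT, a repressor that pairs with MAX or MLX, fell by 0.58, 0.53 and 0.25 (edgeR adjusted p = 7.71e-09, 9.74e-08 and 0.000648). MXD3 fell by 0.80 in RBM17 knockdown and 0.31 in U2SURP knockdown (edgeR adjusted p = 5.17e-10 and 0.000479). MXD1, a MAX-binding repressor, fell by 0.43 in RBM17 knockdown and 0.50 in CHERP knockdown (edgeR adjusted p = 9.54e-05 and 2.18e-05). MGA, a MAX partner, rose in all 3, by 0.12, 0.25 and 0.28 (edgeR adjusted p = 0.0423, 0.000157 and 3.83e-05).

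Of 11 thioredoxin system genes, 10 rose and 0 fell in RBM17 knockdown, and 6 rose and 1 fell in each of the others. Of all genes, 25.4% were called higher and 29.3% lower in RBM17 knockdown, 21.1% and 22.2% in U2SURP knockdown, and 22.8% and 24.6% in CHERP knockdown. Medians were 0.60, 0.28 and 0.29 log2 units for the list and −0.10, −0.02 and 0.00 for all genes. The 1 that fell was PRDX4 in both cases, by 0.24 and 0.25, named after its values were seen. TXN, the thioredoxin that TXNIP binds, went from 185.5 CPM in control to 345.2 with RBM17 siRNA and 228.3 with U2SURP siRNA, by 0.90 and 0.30 log2 units (edgeR adjusted p = 1.44e-08 and 0.0048). With CHERP siRNA TXN held 188.0 CPM (0.02, edgeR adjusted p = 0.868). TXNRD1, the reductase that recharges thioredoxin, rose by 0.74, 0.39 and 0.52 (edgeR adjusted p = 1.38e-10, 5e-06 and 6.56e-08). PRDX5, a thioredoxin-dependent peroxidase, rose by 0.60, 0.38 and 0.59 (edgeR adjusted p = 1.73e-09, 4.07e-06 and 3.65e-09). PRDX1, another peroxidase, rose by 1.03 in RBM17 knockdown and 0.39 in CHERP knockdown (edgeR adjusted p = 2.72e-12 and 8.16e-06) and differed by 0.00 in U2SURP knockdown (edgeR adjusted p = 0.986). PRDX3, the mitochondrial peroxidase, rose by 0.687, 0.222 and 0.346 (edgeR adjusted p = 1.05e-09, 0.00386 and 3.58e-05). PRDX6 rose by 0.596, 0.405 and 0.405 (edgeR adjusted p = 3.7e-08, 1.85e-05 and 1.44e-05).

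Of the 9 NEDD4-family ubiquitin ligases, the partners that alpha-arrestins recruit, 6 rose and 0 fell in RBM17 knockdown, 4 rose and 0 fell in U2SURP knockdown and 5 rose and 3 fell in CHERP knockdown. All-gene shares called higher and lower were 25.4% and 29.3%, 21.1% and 22.2%, and 22.8% and 24.6%. List medians were 0.24, 0.13 and 0.21, beside −0.10, −0.02 and 0.00 over all genes. NEDD4 rose from 26.1 CPM in control to 39.4 with U2SURP siRNA and 46.5 with CHERP siRNA, by 0.59 and 0.83 log2 units (edgeR adjusted p = 1.03e-08 and 2.12e-11). It held 27.5 CPM with RBM17 siRNA (edgeR adjusted p = 0.263). WWP2 rose in all 3, by 0.24, 0.40 and 0.35 (edgeR adjusted p = 0.000218, 6.56e-07 and 2.25e-06), and so did ITCH, by 0.29, 0.20 and 0.21 (edgeR adjusted p = 2.05e-05, 0.00147 and 0.000953). WWP1 rose by 0.44 in RBM17 knockdown and 0.22 in CHERP knockdown (edgeR adjusted p = 1.59e-07 and 0.00106). SMURF1 rose in the same knockdowns by 0.16 and 0.24 (edgeR adjusted p = 0.00669 and 0.000157). The 3 that fell in CHERP knockdown, named after their values were seen, were NEDD4L (−0.28, edgeR adjusted p = 0.000205), HECW1 (−0.37, edgeR adjusted p = 0.0121) and HECW2 (−0.16, edgeR adjusted p = 0.0367).

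**Figure D5:**
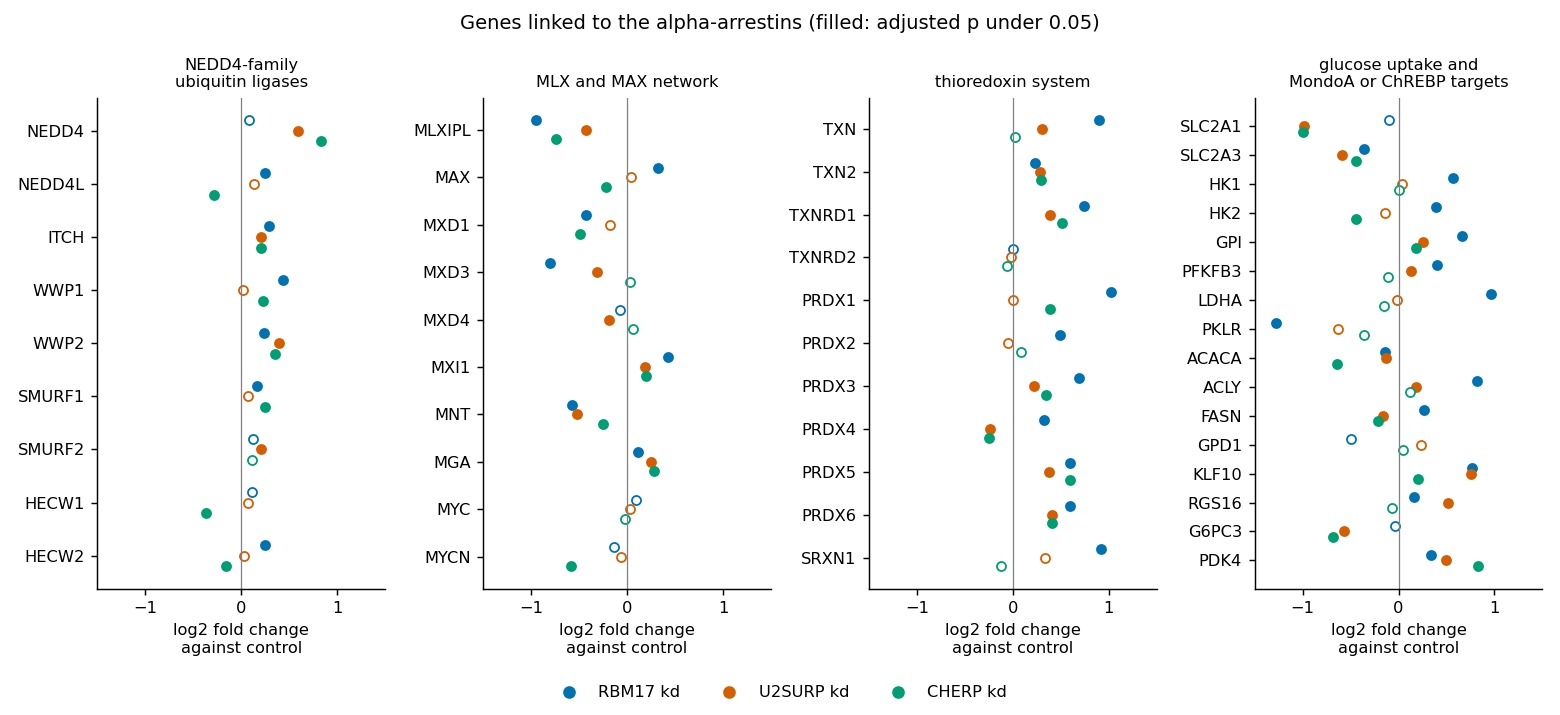
Log2 fold change against control (horizontal axis) of the genes of 4 lists, 1 row per gene and 1 point per knockdown (colours). Filled points have an adjusted p under 0.05 and open points do not. The lists were chosen with earlier results of these data known. Thioredoxin system genes lie mostly above 0 (10 of 11 called higher in RBM17 knockdown), while glucose genes lie on both sides of 0, with SLC2A1 near −1 in U2SURP and CHERP knockdown.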

How the data were processed

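For 12 libraries of HEK293 cells, the authors deposited unnormalised read counts by Ensembl gene ID; libraries were made with a stranded mRNA kit per the labels' protocols. HISAT2 2.0.5, SAMtools, HTSeq and GRCh38 are named in the submitters' processing notes, without roles; annotation release and strand setting: not given in the sources used here, so reads of overlapping genes may be mixed. Of 60554 IDs, 56996 were named by GENCODE 29. Groups came from the labels. Counts were filtered (filterByExpr), TMM-scaled and modelled by robust quasi-likelihood in edgeR 4.0.16 under R 4.3.3, with all 4 groups in 1 fit, Benjamini-Hochberg adjustment over 29003 genes and a threshold of 0.05; the fit was tested on simulated data. CPM are TMM-scaled; the common biological coefficient of variation was 0.0866. SE was taken as |log2 fold change| over √F. Replicates differed beyond sampling noise (chi-square per gene 11.3 to 47.5). At this depth the spread between libraries, not counting error, sets the precision.

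The members and lists were chosen with earlier results of these data known. Named list genes are those called with the smallest adjusted p, up to 3 per list and contrast with control, plus MLXIPL, ARRDC5, ARRDC1-AS1, ARRDC3-AS1, TXN and SLC2A1; others are marked as named after their values were seen. A list gene given for 1 knockdown may also have been called in another. Alternatives were DESeq2 1.42.0 (size factors, Wald test), no filter, protein-coding genes only, another gene length, another minimum level, a fit of the 2 compared groups only and leaving out each library. Figures were drawn with matplotlib 3.10.9.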

Additional observations from a re-analysis of the deposited data

How the results depend on the processing

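Of 42 contrasts of a member (7 genes, 6 contrasts), 25 were unchanged under all 17 alternatives and 17 were not. For tested contrasts, unchanged meant the same direction and the same side of the threshold. TXNIP and ARRDC3 against control, chosen by value, are all among the 25 but were checked against no threshold. They counted as unchanged if they kept direction and moved by less than the largest SD within a group. Among the counts of calls over members and over all genes, that of members for RBM17 minus CHERP moved by over 1.5 times, from 2 to 1 with protein-coding genes only and to between 1 and 3 when a library was left out. With protein-coding genes only, MLXIP moved from 0.165 to 0.095 for RBM17 minus control and from 0.139 to 0.059 for RBM17 minus CHERP. No paired analysis was run, because the replicate numbers follow accession order and the labels link no libraries across groups. ARRDC3 was lowest in number 1 of each group, and TXN rose from number 1 to 3 in each group. MLX had no such shared order. Whether libraries of the same number belong together was not tested. The calls of ARRDC2 against control, those of MLXIP and 1 of MLX that changed stand beside those genes, and their causes were not tested. The reversed values were all of uncalled differences near 0. With DESeq2's size factors and with its Wald test, U2SURP minus control became 0.002 for MLX and 0.011 for MLXIP. With protein-coding genes only, ARRDC2 became −0.016 for U2SURP minus CHERP, and MLX became −0.058 for RBM17 minus control and −0.024 for RBM17 minus U2SURP. With a library left out, U2SURP minus CHERP ran from −0.039 to 0.171 for ARRDC1, −0.04 to 0.081 for ARRDC2, −0.134 to 0.258 for ARRDC3 and −0.082 to 0.03 for MLXIP. RBM17 minus CHERP ran from −0.135 to 0.033 for ARRDC4 and −0.074 to 0.021 for TXNIP. MLX ran from −0.036 to 0.06 for RBM17 minus control, −0.073 to 0.023 for U2SURP minus control and −0.001 to 0.08 for RBM17 minus U2SURP. MLXIP ran from −0.048 to 0.052 for CHERP minus control and −0.056 to 0.008 for U2SURP minus control. Levels per kilobase depend on the length used: with the longest transcript the control level went from 14.8 to 24.5 for MLXIP and from 9.15 to 15.1 for MLX, which changed the order in control and that of ARRDC4 and MLXIP in RBM17 and CHERP knockdown. Fits without a library leave 2 libraries in a group.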

Other observations

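Genes with an arrestin fold outside the alpha-arrestin members, 5 of them tested, rose in all 5 cases in RBM17 knockdown, in 3 cases in U2SURP knockdown, and in CHERP knockdown 2 rose and 2 fell (medians 0.25, 0.13 and 0.01 log2 units, beside −0.10, −0.02 and 0.00 over all genes). Of all genes, 25.4% were called higher and 29.3% lower in RBM17 knockdown, 21.1% and 22.2% in U2SURP knockdown, and 22.8% and 24.6% in CHERP knockdown. ARRB2, the beta-arrestin that ends signalling by G-protein-coupled receptors, rose from 70.1 CPM in control to 97.7 with RBM17 siRNA and fell to 49.2 with CHERP siRNA, by 0.48 and −0.51 log2 units (edgeR adjusted p = 4.55e-08 and 2.73e-08). In U2SURP knockdown ARRB2 rose by 0.13 (edgeR adjusted p = 0.0438). VPS26A, a retromer subunit with an arrestin fold, rose in all 3 knockdowns by 0.83, 0.52 and 0.44 (edgeR adjusted p = 1.13e-10, 4.69e-07 and 2.66e-06). VPS26C, a subunit of the related retriever complex, also rose in all 3, by 0.15, 0.18 and 0.27 (edgeR adjusted p = 0.0137, 0.00642 and 8.82e-05). ARRB1, the other beta-arrestin, rose by 0.25 in RBM17 knockdown (edgeR adjusted p = 0.0017) and fell by 0.16 in CHERP knockdown (edgeR adjusted p = 0.0382). ARRDC5, the remaining alpha-arrestin gene, did not pass the filter, with 0 to 5 counts per library.

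AMPK, the energy-sensing kinase that phosphorylates TXNIP and marks it for degradation, has 6 subunit genes tested here. Of these 2 rose and 0 fell in RBM17 knockdown, 3 rose and 0 fell in U2SURP knockdown and 5 rose and 0 fell in CHERP knockdown, with medians of 0.10, 0.14 and 0.25. Over all genes 25.4% were called higher and 29.3% lower, 21.1% and 22.2%, and 22.8% and 24.6%, with medians of −0.10, −0.02 and 0.00, so the RBM17 count is near the background. PRKAG1, a regulatory subunit, rose from 48.7 CPM in control to 58.4, 65.7 and 76.0, by 0.26, 0.43 and 0.64 (edgeR adjusted p = 0.000304, 1.06e-06 and 1.59e-09). PRKAA1, a catalytic subunit, rose by 0.32 in CHERP knockdown (edgeR adjusted p = 2.15e-05), and PRKAA2, the other one, by 0.26 in U2SURP knockdown (edgeR adjusted p = 0.00152). Of the scaffold subunits, PRKAB1 rose by 0.35 in RBM17 knockdown (edgeR adjusted p = 2.03e-05) and PRKAB2 by 0.16 and 0.25 in U2SURP and CHERP knockdown (edgeR adjusted p = 0.028 and 0.00087).

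ARRDC3-AS1, an RNA transcribed against ARRDC3, held 1.92 CPM in control and 1.81, 1.67 and 2.50 CPM with RBM17, U2SURP and CHERP siRNA, and rose in CHERP knockdown alone of the 3 contrasts tested (0.38, edgeR adjusted p = 0.0186, against 0.606 and 0.235).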
